A study of Rattus norvegicus with 28 samples.

Results

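Transcript levels of 6 astrocyte genes were followed in rat orbitofrontal cortex during withdrawal from methamphetamine (meth) self-administration. The genes were Gfap (ENSRNOG00000002919), Aqp4 (ENSRNOG00000016043), S100b (ENSRNOG00000001295), Slc1a2 (ENSRNOG00000005479), Slc1a3 (ENSRNOG00000016163) and Glul (ENSRNOG00000049560). They were chosen by identifier, and all 6 were found among the 26405 gene identifiers of the count files. The symbols were given together with that list of identifiers, since the files hold identifiers alone. All 6 passed the filter on low counts. The data are poly(A) RNA sequencing of punches of orbitofrontal cortex, a frontal area that takes part in valuing rewards and the cues that announce them. Sprague Dawley rats had self-administered meth, a psychostimulant that releases monoamines, or saline, and were killed on withdrawal day 2 or day 35. The 4 groups were day 2 saline, day 2 meth, day 35 saline and day 35 meth, with 4 libraries each. Each library held RNA pooled from 2 rats, so every value below is a mean over a pool and the spread between single rats was not measured. The labels name the withdrawal times short and long, and the series' design text gives them in days. Sources used here give neither sex nor age. The rats were trained in more than 1 run, and which run a library came from is not labelled.

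Astrocytes surround cortical synapses and clear the glutamate that neurons release. They take it up through sodium-driven transporters in their membrane, convert it to glutamine, and return the glutamine to neurons for renewed transmitter synthesis. Slc1a2 encodes the main glutamate transporter of forebrain astrocytes, Slc1a3 encodes a related transporter of the same family, and Glul encodes glutamine synthetase, which converts glutamate and ammonia to glutamine. Gfap encodes the intermediate filament protein that rises in reactive astrocytes. Aqp4 encodes the water channel of astrocyte endfeet around blood vessels, and S100b encodes a calcium-binding protein of astrocytes, also made by some oligodendrocyte lineage cells. Down-regulation of the astrocytic glutamate transporter after drug self-administration has been described in other brain regions, chiefly the nucleus accumbens, in rats trained on cocaine.

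Gene counts per library, counted in M (mega-reads), ran from 20.33 to 48.47 M. They ran from 24.97 to 37.48 M in day 2 meth, from 36.72 to 43.98 M in day 35 meth, from 31.85 to 48.47 M in day 35 saline and from 20.33 to 23.54 M in day 2 saline libraries. The lowest count of any of the 6 genes in any library was 4697 reads, for Gfap. Levels are given as CPM, gene counts scaled to the same total in every library, with library sizes adjusted by TMM. CPM is not divided by transcript length, so levels are compared between libraries and never between genes. On the mean over the groups, the genes varied more between pools of a group than genes with similar read counts. The mean within-group coefficient of variation was 18.1% for Gfap, and the median of the 692 other tested genes within 0.5 log2 units of its level was 3.18%. It was 7.78% for Aqp4, 7.49% for S100b, 6.38% for Glul, 6.00% for Slc1a2 and 5.32% for Slc1a3, and the medians of genes at their levels were 3.07 to 3.30%. The groups differed in this. Slc1a2 was at 2.12% in day 2 saline, 2.94% in day 2 meth, 4.02% in day 35 saline and 14.9% in day 35 meth. Slc1a3 ran from 1.98% in day 2 meth to 8.92% in day 35 meth, and Aqp4 from 2.87% in day 2 meth to 14.5% in day 35 saline. In bulk tissue, fewer astrocytes in a punch and less RNA per astrocyte cannot be told apart. Markers of other cell types could not be matched to identifiers, and their part in the results was not tested.

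From day 2 to day 35 in meth rats, 0 of the 6 genes rose and 3 fell: Aqp4, Slc1a2 and Slc1a3. The changes were -22.9% for Aqp4, -19.8% for Slc1a2 and -14.5% for Slc1a3 at an adjusted p under 0.05 (edgeR quasi-likelihood test, Benjamini-Hochberg over all 15413 genes tested). In the same comparison 282 of 15413 genes were called, or 1.83%. The other 3 genes had negative fold changes that did not pass. In saline rats 0 of the 6 genes passed between the days, and 0% of all genes did with edgeR. There 0 of the 6 had groups without overlap, against 3.86% of all genes, and 0 of the 6 had an unadjusted p under 0.05, against 8.68% (1338 genes). DESeq2 called 36 genes between the days in saline rats, and 0 of the 6. The saline log2 ratios of Gfap and S100b were -0.13 and 0.05 (edgeR adjusted p = 0.905 and 0.888). The calls in meth rats were close to the threshold, as given below for each gene.

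Because these 3 genes were the ones called, the 250 bases before their most upstream annotated start are shown, 5′ to 3′ on the strand of the gene. The sequences are from RefSeq, build GRCr8, matched by symbol, whereas the submitters' processing notes name rn4 for the counts and give no annotation. Capitals mark matches to motifs searched on both strands.
Aqp4, chr18:6798843-6799092, minus strand: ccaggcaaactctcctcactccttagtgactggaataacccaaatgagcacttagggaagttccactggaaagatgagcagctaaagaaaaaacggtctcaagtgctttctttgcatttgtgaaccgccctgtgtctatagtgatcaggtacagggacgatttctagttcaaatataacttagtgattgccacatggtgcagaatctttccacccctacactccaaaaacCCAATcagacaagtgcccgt
Slc1a2, chr3:109459859-109460108, plus strand: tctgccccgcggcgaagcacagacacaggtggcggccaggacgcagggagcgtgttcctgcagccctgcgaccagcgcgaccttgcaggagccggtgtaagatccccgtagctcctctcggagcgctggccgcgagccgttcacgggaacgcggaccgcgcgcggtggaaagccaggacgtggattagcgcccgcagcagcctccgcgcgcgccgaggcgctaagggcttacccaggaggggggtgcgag
Slc1a3, chr2:59557809-59558058, minus strand: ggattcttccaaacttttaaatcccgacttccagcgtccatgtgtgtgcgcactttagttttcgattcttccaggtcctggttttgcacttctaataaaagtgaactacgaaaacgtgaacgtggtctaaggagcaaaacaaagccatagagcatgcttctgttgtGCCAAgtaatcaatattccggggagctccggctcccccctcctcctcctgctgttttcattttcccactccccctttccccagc
The TATA box, where the basal machinery is placed on many promoters, was searched as TATAAA and was found in 12.9% of the 33469 promoter windows of this length in the table. The CCAAT box was searched by those letters and was found in 34.0% of windows. Nuclear factor I, a family with a part in astrocyte differentiation, has the half-site TTGGC, which was found in 40.3% of windows. The core bound by SOX factors was searched as AACAAT and was found in 10.3% of windows. A STAT site, bound by factors that act on Gfap during astrocyte differentiation, was searched as TTCCNGGAA and was found in 1.07% of windows. An AP-1 site, bound by Fos and Jun dimers, was searched as TGANTCA and was found in 6.34% of windows. A CCAAT box that follows a G also holds a nuclear factor I half-site on the other strand, so these matches can overlap. Aqp4 held 1 CCAAT box, at position -20 from its start. Slc1a3 held 1 nuclear factor I half-site, at position -84 from its start. The Slc1a2 window held none of the 6 motifs. No motif was shared by the 3 windows shown. A later annotated start of Slc1a2 had a nuclear factor I half-site in its window, at position -99. The window of a later Aqp4 start held none of the 6 motifs, and the other Slc1a3 windows held the same half-site as the one shown. The matches depend on the start shown, and a match or its lack is a description of these letters only.

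Aqp4, the water channel of the endfeet, had the smallest adjusted p. Its levels were 418, 404, 390 and 406 CPM in day 2 meth replicates 1 to 4, and 292, 307, 336 and 313 CPM in day 35 meth replicates 5 to 8. All 4 day 2 libraries were above all 4 day 35 libraries, with 53.8 CPM between the lowest day 2 and the highest day 35 library. The means were 404 ± 11.6 and 312 ± 18.2 CPM (SD, n = 4 each). The log2 ratio of day 35 to day 2 was -0.37 ± 0.08 (SE, edgeR adjusted p = 0.0332). Saline pools spread more widely, at 371, 344, 315 and 376 CPM on day 2 and 408, 323, 312 and 302 CPM on day 35. Replicate 9 alone of the day 35 saline libraries was as high as the day 2 meth libraries. The saline means of 352 ± 27.9 and 336 ± 48.6 CPM gave a log2 ratio of -0.06 ± 0.08 (SE, edgeR adjusted p = 0.884), and the groups overlapped. The call for Aqp4 in meth rats held in 16 of 25 alternative fits, whose edgeR, DESeq2 or limma-voom adjusted p ran from 0.000458 to 0.108. These fits include those without 1 saline library, which takes no part in the contrast. With 1 meth library left out, Aqp4 passed only without day 35 meth replicate 7 (edgeR adjusted p = 0.0498). Its log2 fold change stayed between -0.41 and -0.34 in all 25.

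Slc1a2, the main uptake transporter, stood at 699, 733, 688 and 724 CPM in the 4 day 2 meth libraries. In day 35 meth libraries it stood at 663, 584, 577 and 456 CPM. The groups did not overlap, but the day 35 libraries were far apart, from replicate 5, just under the lowest day 2 library, to replicate 8, the lowest of all 16. The means were 711 ± 20.9 and 570 ± 85.2 CPM (SD, n = 4 each). This gave a log2 ratio of -0.32 ± 0.08 (SE, edgeR adjusted p = 0.0474). Without replicate 8 the log2 fold change was -0.22 with an edgeR adjusted p of 0.0199. Saline pools were close together, at 609, 626, 641 and 627 CPM on day 2 and 661, 616, 648 and 678 CPM on day 35. They overlapped between the days and had a log2 ratio of 0.06 ± 0.08 (SE, edgeR adjusted p = 0.891). The call in meth rats held in 5 of 25 alternative fits. It missed the threshold with sequencing lane as a replicate block (edgeR adjusted p = 0.0719), with median-ratio size factors (edgeR adjusted p = 0.0507) and with the 2 meth groups fitted alone (edgeR adjusted p = 0.171).

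For Slc1a3, the related transporter, the day 2 meth levels were 727, 747, 744 and 763 CPM, against 593, 640, 600 and 717 CPM on day 35. The groups did not overlap, and replicate 8 came nearest to the day 2 libraries. The means were 746 ± 14.7 and 637 ± 56.9 CPM (SD, n = 4 each). The fitted log2 ratio was -0.23 ± 0.05 (SE, edgeR adjusted p = 0.0434). In saline rats the levels were 705, 625, 697 and 751 CPM on day 2 and 714, 707, 668 and 693 CPM on day 35. The day 35 values lay inside the day 2 range, and the fitted log2 ratio was 0.0016 ± 0.05 (SE, edgeR adjusted p = 0.998). The call in meth rats held in 9 of 25 alternative fits, with adjusted p-values from 0.0069 to 0.144. With 1 meth library left out, it held only without day 35 meth replicate 8 (edgeR adjusted p = 0.0069).

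The transporters did not move together library by library in day 35 meth. Replicate 8 was the lowest of its group for Slc1a2 and the highest for Slc1a3, and replicate 5 was the highest for Slc1a2 and the lowest for Slc1a3. The ratio of Slc1a2 to Slc1a3 CPM was 1.118 in replicate 5, 0.913 in replicate 6, 0.961 in replicate 7 and 0.637 in replicate 8. In the other 3 groups it stayed between 0.836 and 1.00. The mean ratio was 0.954 ± 0.023 in day 2 meth and 0.907 ± 0.201 in day 35 meth (SD, n = 4 each). The difference in spread was not tested.

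Glul, which acts after uptake, had the same sign without passing. Its levels were 1564, 1751, 1665 and 1870 CPM in day 2 meth and 1581, 1478, 1439 and 1590 CPM in day 35 meth libraries. The groups overlapped, because day 2 replicate 1 was below the highest day 35 libraries. The log2 ratio was -0.17 ± 0.06 (SE, edgeR adjusted p = 0.155, 95% interval -0.30 to -0.05). In saline rats it was 0.06 ± 0.06 (SE, edgeR adjusted p = 0.849).

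Gfap had the largest fold change of the 6 and the largest error. It stood at 291, 238, 266 and 306 CPM in day 2 meth and at 165, 197, 237 and 183 CPM in day 35 meth libraries. The groups did not overlap, but only 1.55 CPM parted the lowest day 2 from the highest day 35 library. Its log2 ratio was -0.49 ± 0.19 (SE, edgeR adjusted p = 0.228, 95% interval -0.91 to -0.07). Saline libraries on day 35 ran from 161 CPM in replicate 12 to 324 CPM in replicate 9, the lowest and the highest of all 16. S100b ranged from 1088 to 1181 CPM in day 2 meth and from 934 to 1100 CPM in day 35 meth libraries, which overlapped (log2 ratio -0.18 ± 0.07, SE, edgeR adjusted p = 0.217). Without overlap between the day 2 and day 35 meth groups were 4 of the 6 genes, against 11.4% of all genes tested. An unadjusted edgeR p under 0.05 was found for 6 of the 6 in this comparison, against 16.0% of all genes tested. Such shares, here and in the comparisons below, are descriptions, because the 6 genes were chosen with earlier results of these data known. They were also chosen as markers of 1 cell type, so they are not independent of each other. Their median log2 fold change was -0.27, and the median over all 15413 genes was -0.0035.

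**Figure D1:**
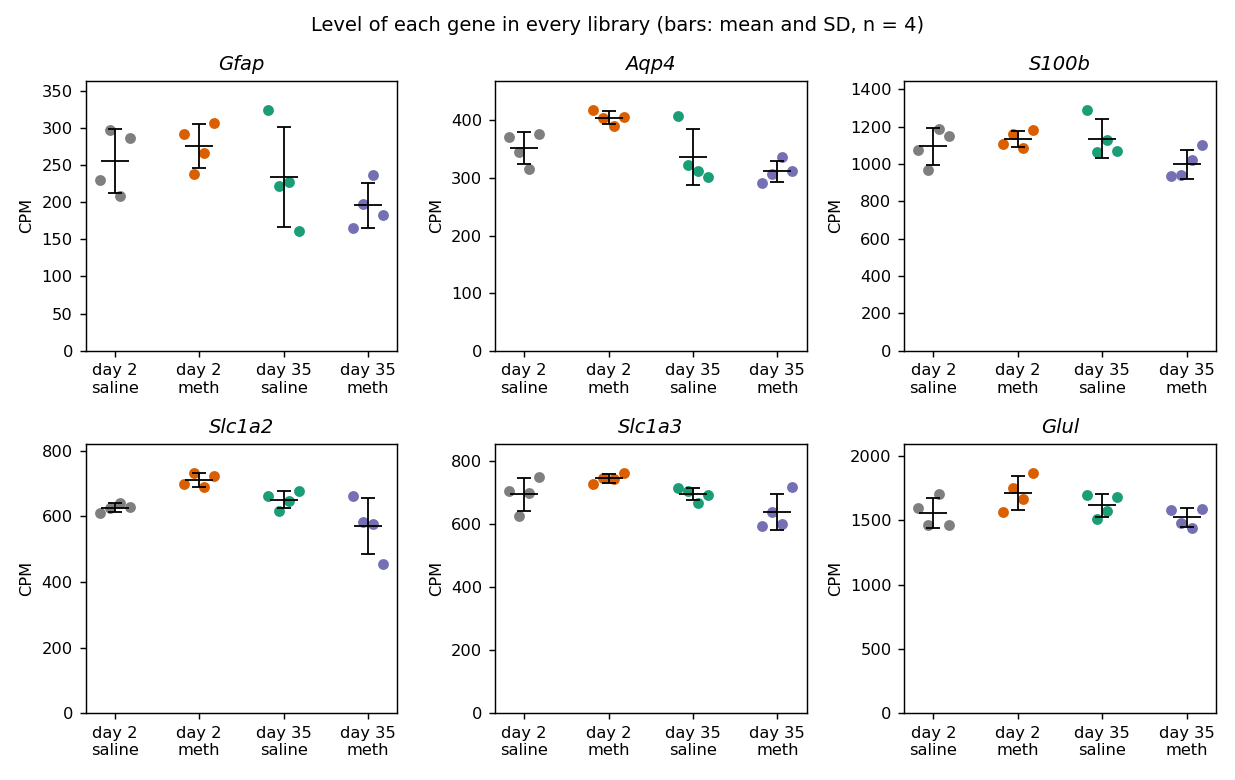
CPM of each gene (vertical axis, starting at 0) in the 16 libraries by group (horizontal axis). Points are libraries, and bars are the mean and SD (n = 4). Day 35 meth has the lowest mean in all 6 panels, and for Slc1a2 its points spread from 456 to 663 CPM.

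Depth and sequencing lane were looked at beside this comparison. Day 35 meth libraries were deeper than day 2 meth libraries on the whole. With all libraries thinned to the depth of the shallowest, 1 of the 6 genes was called: Aqp4 (log2 fold change -0.40, edgeR adjusted p = 0.0275). Slc1a2 and Slc1a3 then had log2 fold changes of -0.32 and -0.22 (edgeR adjusted p = 0.0695 and 0.0592). Each lane carried 1 library of every group. Within lanes, day 35 meth was below day 2 meth in 4 of 4 lanes for Gfap, Aqp4, S100b, Slc1a2 and Slc1a3, and in 3 of 4 for Glul. For Gfap, Aqp4, Slc1a2 and Slc1a3 these groups did not overlap, so any pairing would have given 4 of 4. For those genes the lanes add nothing to the lack of overlap. In saline rats day 35 was below day 2 in 3 of 4 lanes for Aqp4, in 2 of 4 for Gfap, S100b and Slc1a3, and in 1 of 4 for Slc1a2 and Glul. A fit with lane as replicate block called 2 of the 6 in meth rats, Aqp4 (edgeR adjusted p = 0.0437) and Slc1a3 (0.0301). Each group carried 1 sequencing index, so index and group cannot be told apart.

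**Figure D2:**
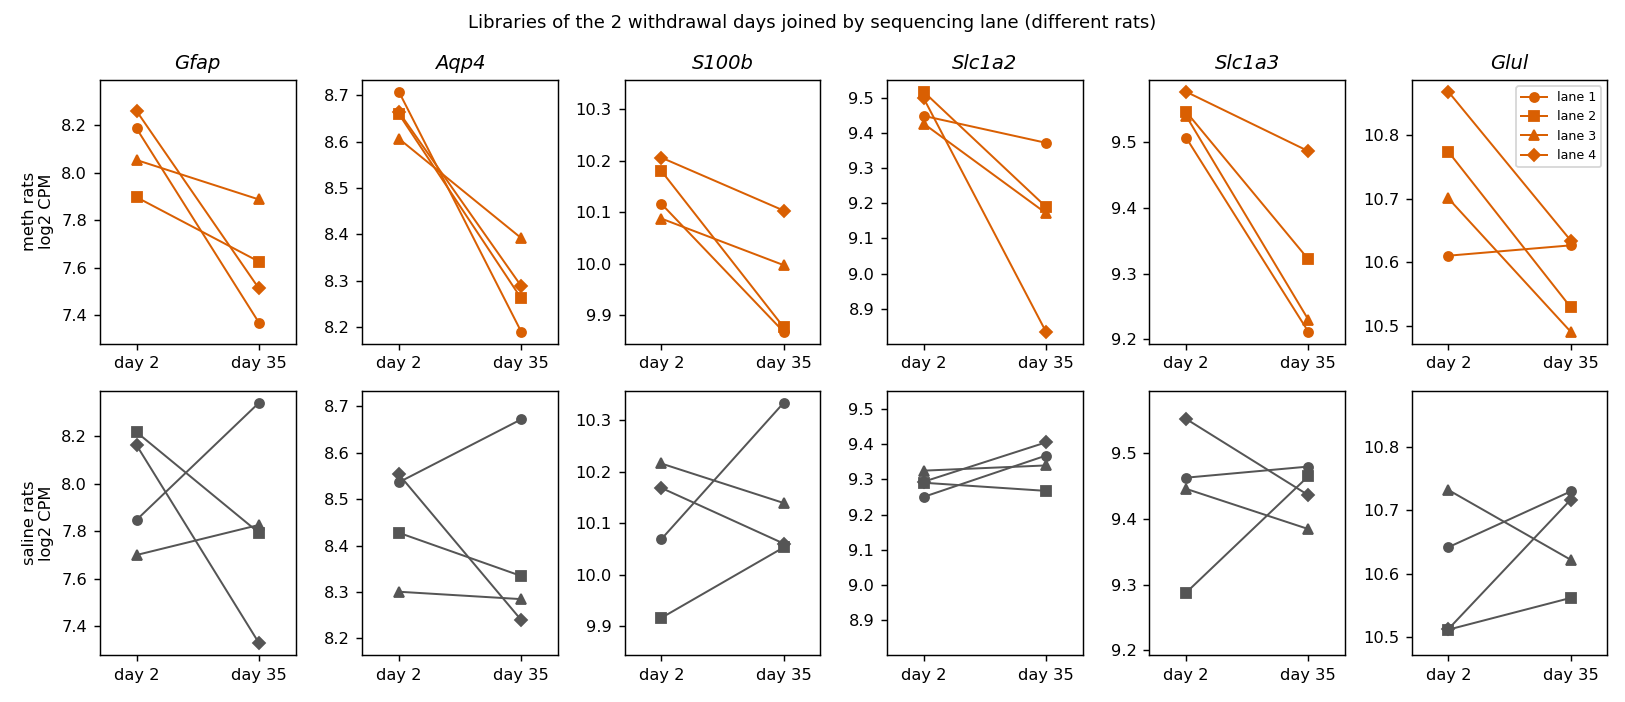
Log2 CPM (vertical axis) on day 2 and day 35 (horizontal axis) for each gene, with lines joining the libraries of 1 sequencing lane; meth rats are above and saline rats below. The lines join different rats. In meth rats 23 of 24 lines fall, and in saline rats 11 of 24 do. The 6 genes were read in the same libraries, so the 24 lines are not independent observations. For Gfap, Aqp4, Slc1a2 and Slc1a3 the meth groups did not overlap, so their lines had to fall. The difference between the drug groups passed for 0 of the 6 genes.

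The calls depended on single libraries. Without any 1 of day 2 meth replicates 1, 2, 3 and 4 or day 35 meth replicate 6, 0 of the 6 genes were called. Without day 35 meth replicates 5 and 7, 1 gene each was called, Slc1a2 and Aqp4 respectively, and without replicate 8 it was Slc1a2 and Slc1a3. Removing a saline library, which takes no part in the contrast but enters the shared estimate of spread, left 1 or 2 genes. With 1 library left out, the log2 fold changes ran from -0.41 to -0.34 for Aqp4, from -0.40 to -0.22 for Slc1a2 and from -0.28 to -0.19 for Slc1a3. Those of Slc1a2 were set by day 35 meth libraries, at -0.40 without replicate 5 and -0.22 without replicate 8. DESeq2 and limma-voom each called the same 3 genes, with adjusted p-values of 0.000458 and 0.0149 for Aqp4, 0.00238 and 0.0248 for Slc1a2, and 0.00747 and 0.0346 for Slc1a3.

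**Figure D3:**
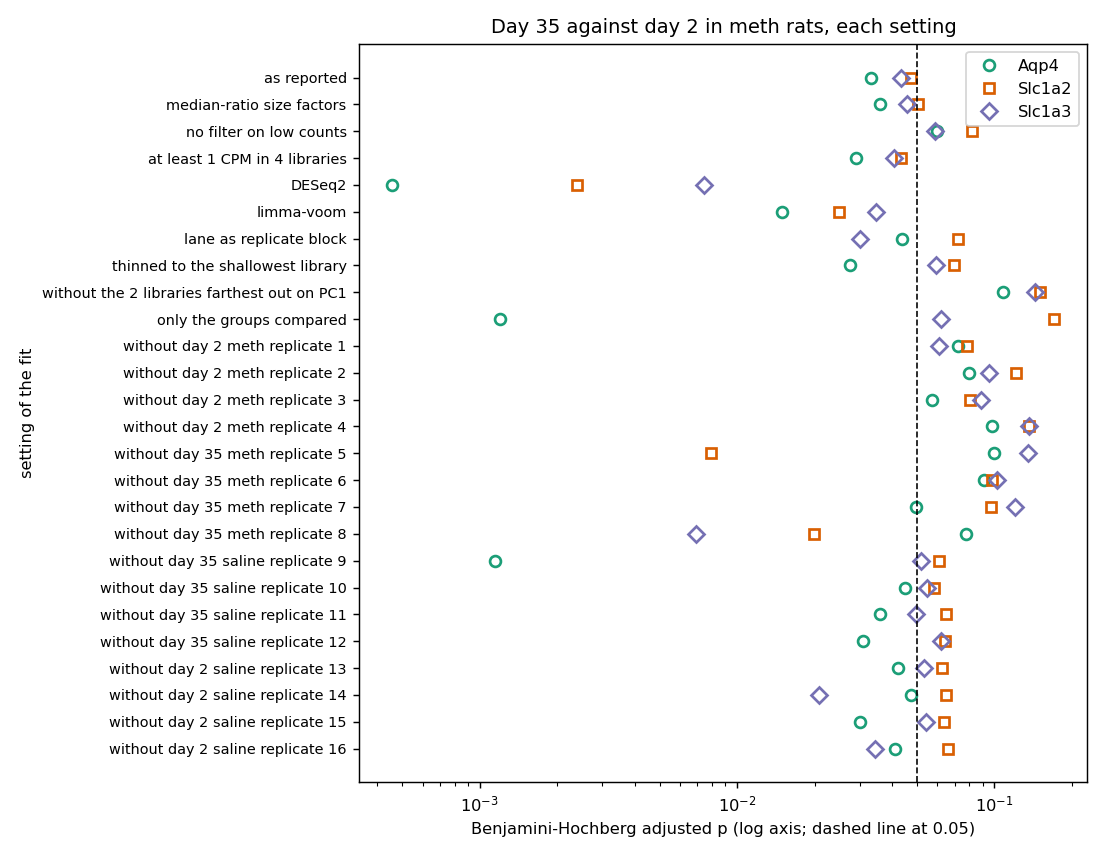
Adjusted p (horizontal log axis) of Aqp4, Slc1a2 and Slc1a3 for day 35 against day 2 in meth rats under each setting of the fit (vertical axis). The dashed line is the threshold of 0.05. Points lie on both sides of the line for each gene, and all 3 genes lie left of it with DESeq2 and limma-voom.

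Meth and saline rats were compared at each day next. At day 2, 0 of the 6 genes passed, and 17 of 15413 genes did, or 0.110%. All 6 fold changes were positive, from 0.05 for S100b to 0.20 for Aqp4 on the log2 scale (median 0.12). For Slc1a2 the 4 meth libraries (688 to 733 CPM) lay above the 4 saline libraries (609 to 641 CPM), at a log2 ratio of 0.18 ± 0.08 (SE, edgeR adjusted p = 0.416). For Aqp4 the meth libraries (390 to 418 CPM) also lay above the saline libraries (315 to 376 CPM), at a log2 ratio of 0.20 ± 0.08 (SE, edgeR adjusted p = 0.406). The other log2 ratios were 0.11 for Gfap (edgeR adjusted p = 0.894), 0.10 for Slc1a3 (0.543), 0.14 for Glul (0.422) and 0.05 for S100b (0.862). With 1 library left out they ran from 0.01 to 0.19 for Gfap, from 0.05 to 0.14 for Slc1a3, from 0.09 to 0.18 for Glul and from -0.0076 to 0.09 for S100b, which turned sign without day 2 saline replicate 14. Aqp4 and Slc1a2 were the 2 of the 6 genes whose groups did not overlap, against 5.45% of all genes tested. Unadjusted p-values under 0.05 were found for 3 of the 6, Aqp4, Slc1a2 and Glul, against 10.5% of all genes.

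At day 35, 0 of the 6 genes passed between meth and saline rats, as did 0 of all 15413 genes with edgeR (0%; DESeq2 called 1 gene and limma-voom 0, and 902 genes had an unadjusted edgeR p under 0.05). All 6 fold changes were negative, from -0.26 for Gfap to -0.09 for Glul on the log2 scale (median -0.16). For Slc1a2 the meth mean was 570 ± 85.2 CPM and the saline mean 651 ± 26.1 CPM (log2 ratio -0.19 ± 0.08, SE, edgeR adjusted p = 0.793). S100b stood at 999 ± 78.1 and 1137 ± 106 CPM (log2 ratio -0.19 ± 0.07, SE, edgeR adjusted p = 0.783). Gfap was at -0.26 (edgeR adjusted p = 0.927), Aqp4 at -0.11 (0.926), Slc1a3 at -0.13 (0.802) and Glul at -0.09 (0.913). Single libraries moved several of these values. Without day 35 saline replicate 9 they were -0.05 for Gfap, -0.00091 for Aqp4 and -0.12 for S100b, and without replicate 12 that of Gfap was -0.40. Without day 35 meth replicate 8 that of Slc1a2 was -0.098. The meth and saline ranges overlapped for 6 of the 6 genes, while 3.46% of all genes had groups without overlap. Unadjusted p-values under 0.05 were found for 3 of the 6, S100b, Slc1a2 and Slc1a3, against 5.85% of all genes.

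Whether the meth effect differed between the days was tested as the difference of these effects, day 35 minus day 2. Of the 6 genes 0 passed, and 21 of 15413 genes did, or 0.136%. Slc1a2 had a log2 difference of -0.37 ± 0.11 (SE, edgeR adjusted p = 0.27, 95% interval -0.61 to -0.14), and Gfap one of -0.36 ± 0.27 (SE, edgeR adjusted p = 0.728). With 1 library left out these ran from -0.46 to -0.28 for Slc1a2 and from -0.50 to -0.16 for Gfap, so their order is not fixed. Slc1a3 had a difference of -0.23 ± 0.08 (SE, edgeR adjusted p = 0.332), Aqp4 of -0.31 ± 0.12 (SE, edgeR adjusted p = 0.396) and Glul of -0.23 ± 0.08 (SE, edgeR adjusted p = 0.383). That of S100b was -0.24 ± 0.10 (SE, edgeR adjusted p = 0.467). Without day 35 saline replicate 9 the difference was -0.20 for Aqp4 and -0.16 for Gfap. Within lanes the difference was negative in 4 of 4 lanes for Slc1a2, from -0.78 to -0.19, and in 4 of 4 for Aqp4 and Glul. It was negative in 3 of 4 lanes for S100b and Slc1a3 and in 2 of 4 for Gfap. The lanes hold the same libraries as the test. Deviations from group means were hardly correlated within lanes (mean 0.012) or between other libraries of different groups (mean -0.004). The lane counts therefore add no evidence beside the test. An unadjusted p under 0.05 was found for 5 of the 6, all but Gfap, against 9.62% of all genes. The fall in meth rats and the lack of a call in saline rats therefore do not show that the drug groups differ. Averaged over both days, 0 of the 6 genes passed between meth and saline rats, with log2 ratios of -0.08 for Gfap, -0.07 for S100b, -0.01 for Slc1a3, -0.0034 for Slc1a2, 0.03 for Glul and 0.05 for Aqp4 (edgeR adjusted p from 0.837 to 0.998). Of all genes 0.0130% were called. In that comparison 0 of the 6 had an unadjusted p under 0.05, against 6.89% of all genes.

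**Figure D4:**
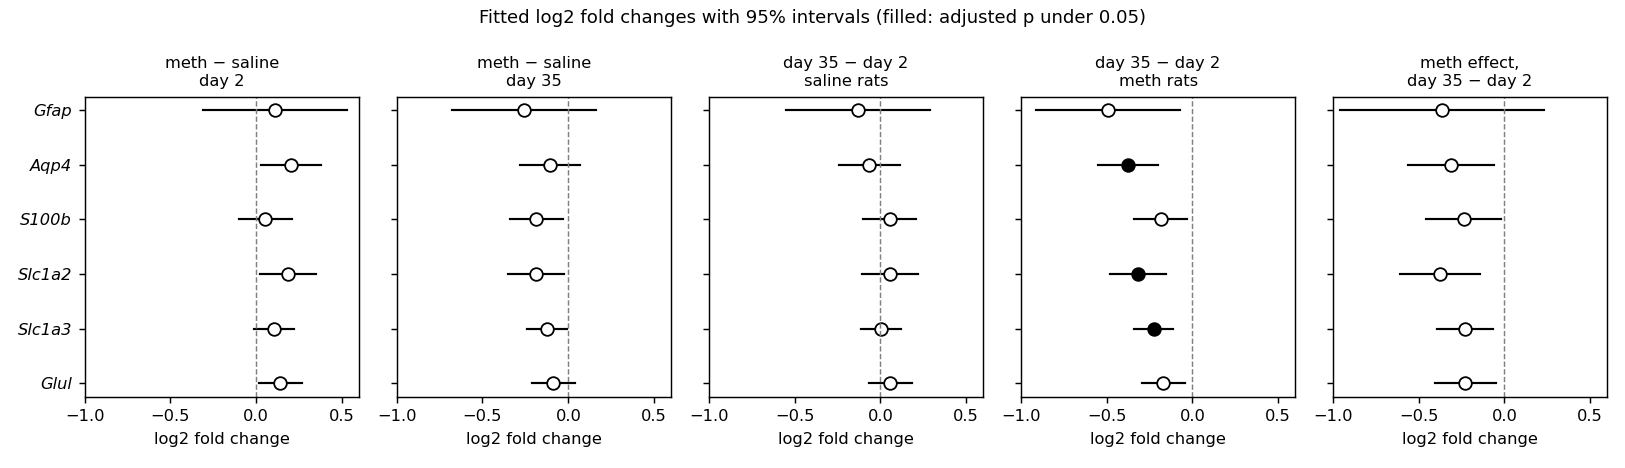
Fitted log2 fold changes (horizontal axis) with 95% intervals for the 6 genes (vertical axis) in 5 comparisons. Filled points passed an adjusted p of 0.05. The filled points are Aqp4, Slc1a2 and Slc1a3 in the comparison of days in meth rats, and these comparisons share libraries.

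The order of the groups was much alike among the genes. Day 2 meth had the highest mean for 5 of the 6 genes and day 35 saline for S100b, where the means were 1137 and 1135 CPM. Day 35 meth had the lowest mean for 6 of the 6. The saline groups lay between for 5 of the 6, and their order differed between genes: for Gfap and Aqp4 day 2 saline was above day 35 saline, and for Slc1a2, Slc1a3 and Glul it was below. No neighbouring groups in these orders differed at an adjusted p under 0.05 where a contrast compared them. Added over the 6 genes, reads made up 0.481 to 0.524% of gene counts in day 2 meth libraries and 0.414 to 0.430% in day 35 meth libraries. In day 2 saline libraries they made up 0.439 to 0.475%, and in day 35 saline libraries 0.447 to 0.506%. Glul and S100b supply most of these reads, so the sums follow them more than the transporters.

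Across the 16 libraries, 15 pairs of the 6 genes were correlated on the log2 CPM scale. All 15 values of Pearson's r were positive, from 0.07 to 0.84, and 4 passed a permutation test at an adjusted p under 0.05 over the 15 pairs (100000 resamples, two-sided). Gfap and Aqp4 had the closest relation (r = 0.84, permutation p = 6e-05, adjusted p = 0.0009, Spearman's rho = 0.90, permutation p = 2e-05). Without the 2 libraries farthest from the median of Gfap their r was 0.78. Among all 15412 other genes, Aqp4 ranked 4 by its r with Gfap, and Gfap ranked 9 by its r with Aqp4. S100b and Slc1a3 followed (r = 0.75, permutation p = 0.00083, adjusted p = 0.00622, rho = 0.69, permutation p = 0.00413), with r = 0.75 without the 2 libraries farthest from the median of S100b. The other pairs that passed were Aqp4 with Slc1a3 (r = 0.65, permutation p = 0.00683, adjusted p = 0.0342, rho = 0.71, permutation p = 0.00275) and S100b with Glul (r = 0.61, permutation p = 0.0132, adjusted p = 0.0495, rho = 0.64, permutation p = 0.00992). Without the 2 farthest libraries their r was 0.65 and 0.67.

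The values of r were lower on the whole within the groups, with a median of 0.11 against 0.49. After centring on the group means, 0 of the 15 pairs passed, with permutations within groups, and 7 of the 15 values of r were below 0. Gfap and Aqp4 kept r = 0.79 (permutation p = 0.00857, adjusted p = 0.128), and S100b and Slc1a3 kept r = 0.64 (permutation p = 0.0285, adjusted p = 0.214). The glutamate transporters Slc1a2 and Slc1a3 had r = 0.27 over all libraries (permutation p = 0.318, adjusted p = 0.343) and r = -0.63 after centring (permutation p = 0.0925, adjusted p = 0.347). Their centred value was -0.14 without day 35 meth replicate 8, the library where Slc1a2 was lowest and Slc1a3 highest of the group. Over all libraries the mean r with the other 5 genes was lowest for Slc1a2, at 0.38, and highest for Aqp4, at 0.58. This order changed without day 35 meth replicate 8. Without that library Slc1a2 had r = 0.20 with Gfap, 0.51 with Aqp4, 0.47 with S100b, 0.60 with Slc1a3 and 0.79 with Glul. Gfap then had r = 0.83 with Aqp4, 0.51 with S100b, 0.47 with Slc1a3 and 0.07 with Glul. After centring on lanes 4 pairs passed.

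**Figure D5:**
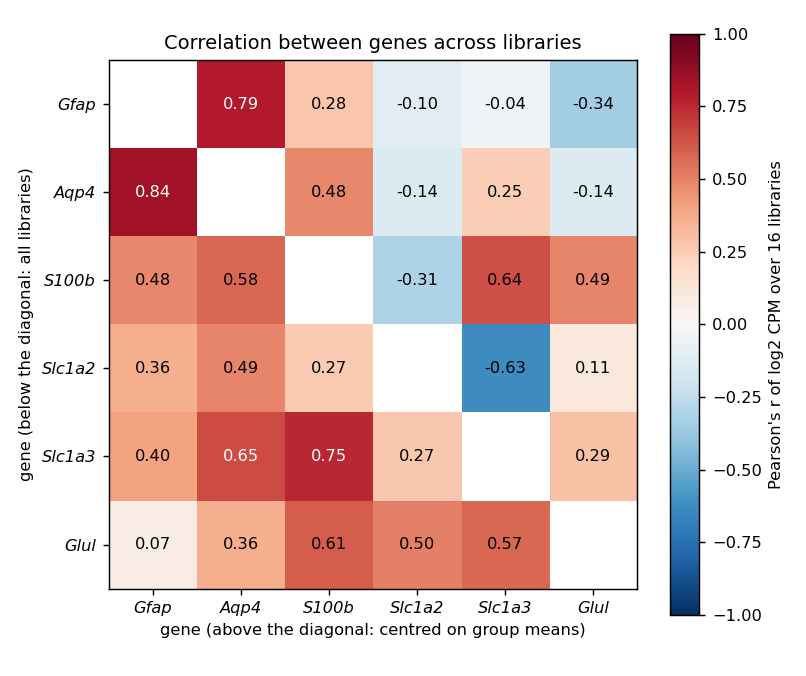
Pearson's r of log2 CPM between each pair of genes over 16 libraries (colour scale from -1 to 1). Below the diagonal are all libraries as they are and above it the values after centring on group means. Gfap with Aqp4 stays high in both (0.84 and 0.79), while Slc1a2 with Slc1a3 turns from 0.27 to -0.63.

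The genes most like the 6 were found by their mean r with them over the 16 libraries. They were ENSRNOG00000009845, with a mean r of 0.70 (0.63 to 0.79 with the single genes), and ENSRNOG00000018087, with a mean r of 0.69 (0.61 to 0.83). Both exceeded the mean r of any of the 6 with the other 5, but they were picked as the highest of all other genes tested. The 6 genes were not picked by r, so this comparison does not show a closer relation. The files do not pair identifiers with names, and these genes are therefore given by identifier only.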

How the data were processed

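Poly(A) RNA of 16 orbitofrontal cortex pools was analysed; the 12 central amygdala samples were not analysed here. Per the labels' protocols, TruSeq RNA v2 libraries were run on a HiSeq instrument. TopHat, HTSeq, limma and the build rn4 are named per the submitters' processing notes; versions, annotation and strand setting are not given there. Each deposited file holds the authors' raw read counts by gene. Reads from overlapping or antisense genes may be mixed, and reads with several alignments (9.17 to 10.29% of the summed counts) were not assigned to genes. The 5 HTSeq summary rows (31.13 to 32.61%) were left out.

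Genes were filtered with filterByExpr (15413 kept), scaled by TMM (factors 0.985 to 1.018) and tested by quasi-likelihood (robust glmQLFit, glmQLFTest) in 1 model of 4 group means over 16 libraries (edgeR 4.0.16, R 4.3.3). The p-values were adjusted by Benjamini-Hochberg over all genes tested, with a threshold of 0.05. Each standard error is the absolute log2 ratio over the root of F, and 95% intervals use the fit's degrees of freedom. Log2 CPM used a prior count of 2. Alternatives were DESeq2 1.42.0, limma-voom 3.58.1, other scaling and filters, lane as a block, thinning, only the groups compared, and libraries left out. Scripts were tested on simulated data. The 24 within-group pairs of libraries were checked for being 1 library: 0 were identical, and chi-square per degree of freedom was 5.19 to 17.01, so all were kept. The labels give each lane 1 library of every group, which is where the pairing comes from; same-lane libraries (24 pairs) had a mean correlation of 0.012 between their deviations (-0.174 to 0.158).

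The 6 genes, lists and tests were chosen with earlier results of these data known. Every member is named in each comparison, with the 2 other genes of highest mean r. Lists of further astrocyte, oligodendrocyte, microglia, endothelial, meningeal and neuronal genes were set by symbol and could not be run, because 0 of 26405 identifiers matched the gene table. Promoter windows were matched for 6 of 6 symbols.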

Additional observations from a re-analysis of the deposited data

How the results depend on the processing

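The fall of Aqp4, Slc1a2 and Slc1a3 over withdrawal in meth rats kept its sign in all 25 alternatives. Their day 2 and day 35 meth libraries did not overlap, so leaving out libraries could not turn the sign. The number of these genes called changed from 3. It was 0 with no filter on low counts and 0 without the pair of libraries most extreme on principal component 1, day 2 meth replicate 4 and day 2 saline replicate 13. It was 1 with thinned counts, 1 with only the groups compared, and 0 to 2 with 1 library left out; the cause was not tested. The lane used as a replicate block pairs libraries through the labels; it left 2 genes (Slc1a2 log2 ratio -0.32, edgeR adjusted p = 0.0719) and changed no other call among the 6 genes. In the other 5 comparisons 0 of the 6 genes were called in every alternative. Near-zero fold changes turned sign. Slc1a3 in saline rats was -0.0025 with thinned counts and -7.246e-05 with only the groups compared, and ran from -0.046 to 0.038 with 1 library left out; the ranges were -0.012 to 0.094 for S100b and -0.33 to 0.013 for Gfap in saline rats, and -0.0076 to 0.0885 for S100b between meth and saline at day 2. Averaged over days they were -0.044 to 0.042 for Slc1a2, -0.043 to 0.0055 for Slc1a3 and -0.15 to 0.025 for Gfap. Pairs correlated were 4, with 0 after centring on groups, 0 after centring without day 35 meth replicate 8 (chosen after seeing the data), and 2 to 8 with 1 library left out. Over all genes DESeq2 called 113 (day 2), 1 (day 35), 78 (difference), 31 (average), 552 (meth rats) and 36 (saline rats), where edgeR called 17, 0, 21, 2, 282 and 0. The difference gave 8 with median-ratio size factors, 9 with 1 CPM in 4 libraries, 9 with limma-voom, 4 with the lane block and 6 with thinned counts. Without the 2 far libraries 4 genes were called at day 2, 0 for the difference, 0 for the average and 119 in meth rats. With 1 library left out edgeR called 6 to 21, 0 to 1, 0 to 17, 1 to 4, 104 to 305 and 0 to 2 genes in the same order of comparisons. Each of the 6 genes had at least 4697 reads in every library, and each group had 4 pools.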
